A study of Danio rerio with 4 samples.

Results

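The comparison described here is that of wild-type zebrafish embryos at 6 hours post fertilisation (hpf) with wild-type embryos at 0 hpf. Each stage was represented by 1 library. A gene was counted when the mean of its FPKM values over the 2 libraries was at least 1, which kept 15031 of the 31870 gene identifiers in the table. FPKM stands for fragments per kilobase of gene and per fixed number of mapped fragments, a share of a library divided by gene length, so that levels of different genes can be set side by side. The series also holds 2 libraries of embryos labelled Mybx1, whose mothers carried a mutation of ybx1, a gene for an RNA-binding cold shock protein. Those embryos enter here only where a value is named as theirs. Both wild-type groups shared the genotype label wild-type and the tissue label embryos, and no strain, clutch or number of embryos per library was given in the sources used here.

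A fish egg is laid with a store of messenger RNA and protein made by the mother during oogenesis. The genome of the embryo is silent during the first rapid cleavages, and is switched on at the midblastula transition while maternal messages are being removed. Zebrafish at 0 hpf therefore carry egg RNA, and at 6 hpf, at the onset of gastrulation, they carry what is left of it together with the transcripts of a genome that has been active for some hours. Ribosomal RNA had been removed from total RNA, so RNA without a poly(A) tail was part of the measurement.

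The spacing of low FPKM values gave library totals of 7570070 reads at 0 hpf and 6240685 at 6 hpf. An FPKM of 1 or more was reached by 13213 identifiers at 0 hpf and by 14342 at 6 hpf. With 1 library per stage there is no replicate error, so no test was made and each difference is that between 2 libraries. Intervals in parentheses are exact 95% counting intervals of a ratio, which cover counting error only. For a gene with 0 reads at a stage the ratio is a bound against the FPKM of 3 reads. Rose and fell are used for genes at least 2-fold apart on log2(FPKM + 1). The lowest mean FPKM of a counted gene was 1.0004 and the highest of a gene left out was 0.9999, with 1940 genes counted between 1 and 2 and 1996 left out between 0.5 and 1. A gene near 0 in the egg was counted only if it was present at 6 hpf, so members of such lists that were counted had to be higher there. For some of these lists the number of matched names is given as well. In whole embryos fewer cells of a type and less RNA per cell cannot be told apart.

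The stage labels were compared with marker genes. The 5 egg markers (zp3b, zp2l1, buc, zar1 and org) lay between 59.9 and 1013 FPKM at 0 hpf and between 5.21 and 28.6 FPKM at 6 hpf. The 3 markers of gastrula mesoderm, tbxta, tbx16 and chrd, were at 0 FPKM at 0 hpf and between 107 and 325 FPKM at 6 hpf. Markers of the enveloping layer, an epithelium that covers the blastoderm, numbered 4 and were between 0 and 0.214 FPKM at 0 hpf and between 267 and 2042 FPKM at 6 hpf. Globins of blood (hbae1.1, hbae3, hbaa1) were at 0 at both stages, and the follicle markers amh and star stayed at or below 0.247 FPKM. Of the liver markers, tfa went from 0 to 93.0 FPKM and fabp10a from 0 to 0.799 FPKM, while ambp was at 0 at both stages and fga stayed near 0.1 FPKM. For muscle, 1 myl1 identifier was at 0 at both stages, another went from 0 to 4.25 FPKM, and ckma was at 0.417 and 0.405 FPKM. The testis marker sycp3 was at 2.65 and 3.57 FPKM and tekt1 at 0.184 and 0.112 FPKM. Markers of the yolk syncytial layer rose, mxtx1 from 0.0711 to 38.4 FPKM, mxtx2 from 0 to 7.25 FPKM and apoa2 from 0 to 5.75 FPKM.

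Of the 15031 genes, 3637 (24.2%) rose and 6183 (41.1%) fell. The other 5211 stayed within 2-fold. The median change over all genes was -0.57 on the log2 scale, and the median of each gene list below is to be read beside it. Scaling decides part of this split, since 37.0% of the genes past 2-fold were higher at 6 hpf as deposited, 32.3% after scaling both libraries to the same sum (TPM), and 51.7% after median-ratio scaling. Those scalings moved the median of all genes to -0.81 and -0.026. Among genes described as higher below, axin2, foxh1, lamc1, mcm7, pcna, slc25a5, vangl2 and 1 STAG2 identifier were within 2-fold under TPM scaling. Among genes described as lower, ATP5F1A, atp1b3b, aurka, aurkb, ccnb1, eed, foxm1, foxo3a, itgb5, kpna2, LDHB, pfn2b, sufu, tbl1xr1b and tubb4b were within 2-fold under median-ratio scaling. With the egg library of Mybx1 in place of the wild-type egg library, 3181 of the 3637 genes were again at least 2-fold higher and 5341 of the 6183 again at least 2-fold lower. The 6 hpf library was the same in both comparisons, so these counts are not an independent repeat of the stage change.

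The genes that rose held 17.7% of the summed FPKM at 0 hpf and 59.8% at 6 hpf. The genes that fell went the other way, from 46.2% to 7.69%. Genes within 2-fold held a similar part at both stages, 35.8% and 32.1%. The typical member of the rising group was nearly absent from the egg, with a median of 0.412 FPKM at 0 hpf and 11.3 at 6 hpf. The typical member of the falling group was well expressed in the egg and was still detected in the gastrula, with medians of 23.8 and 3.802 FPKM.

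**Figure D1:**
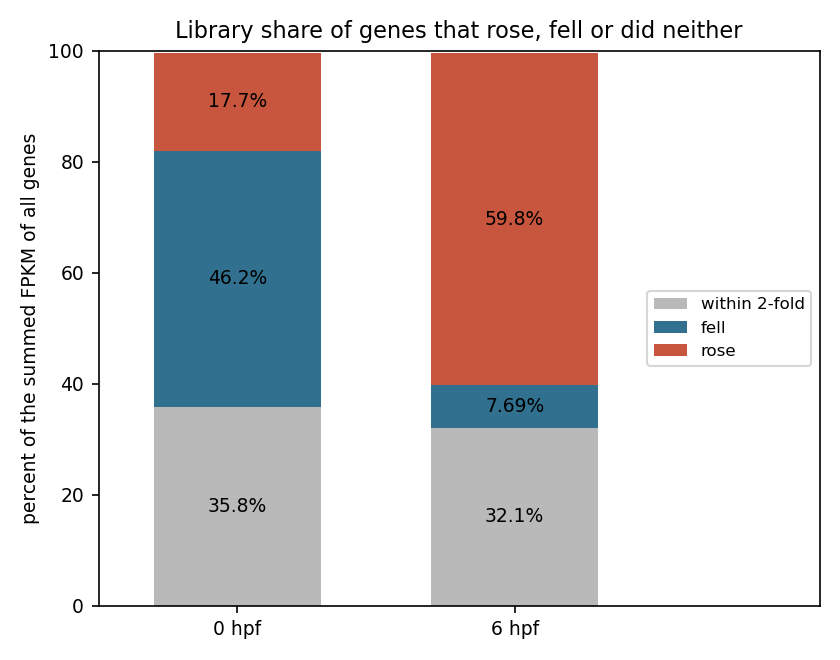
Stacked bars of the percent of the summed FPKM of all genes, in the wild-type library at 0 hpf and at 6 hpf, that came from genes that rose (red), fell (blue) or stayed within 2-fold (grey). Genes that rose went from 17.7% to 59.8% of the library and genes that fell from 46.2% to 7.69%; genes with a mean FPKM below 1 make up the small remainder.

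The exchange was lopsided in depth. At least 10-fold rises numbered 846 and at least 10-fold falls 712. At least 100-fold, 73 genes were higher and 1 gene, lipg, was lower, all on log2(FPKM + 1). From a level below 0.1 FPKM in the egg, 406 genes reached 10 FPKM or more at 6 hpf. In the other direction, 11 genes with 10 FPKM or more in the egg were below 0.1 FPKM at 6 hpf. No gene went from 100 FPKM or more to below 1. Of the genes that rose, 1023 had 0 reads in the egg library, and of those that fell, 101 had 0 reads in the gastrula library. Genes below 1 FPKM in the egg made up 7.16% of the summed FPKM at 6 hpf, so most of the gastrula library came from genes that the egg library already contained.

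**Figure D2:**
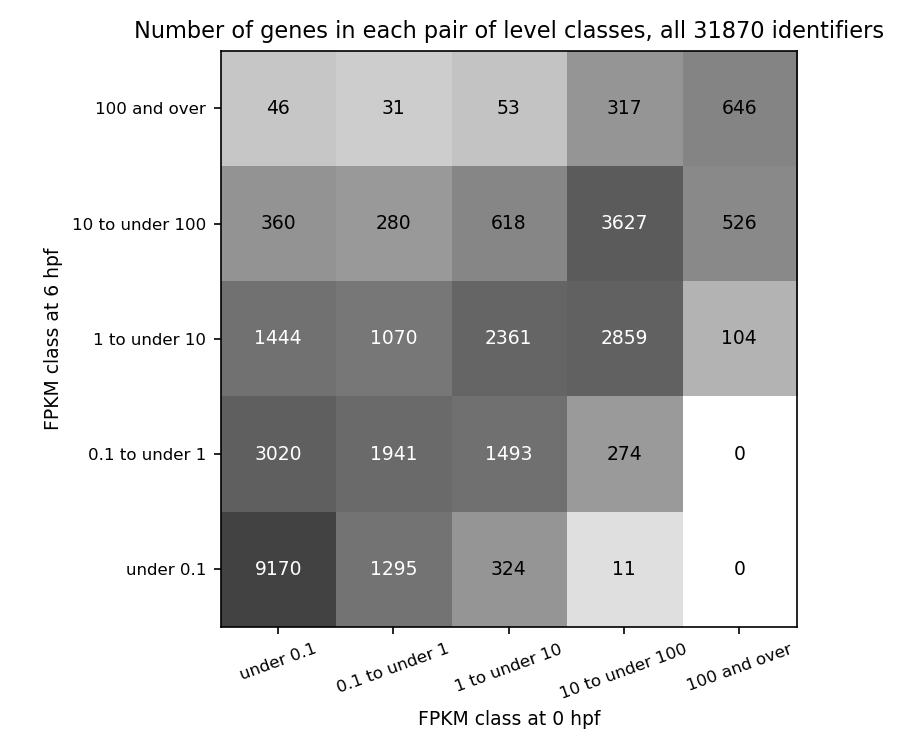
Number of gene identifiers in each pair of FPKM classes, with the class at 0 hpf on the horizontal axis and the class at 6 hpf on the vertical axis; darker cells hold more genes on a log scale. The upper left corner holds 46 genes that went from below 0.1 FPKM to 100 or more, while the cells for 100 or more at 0 hpf and below 1 at 6 hpf hold 0 genes.

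The gastrula library was also more concentrated. The 10 most abundant genes held 4.52% of the summed FPKM at 0 hpf and 12.7% at 6 hpf, and the top 100 held 17.3% and 35.1%. Of the top 100 genes, 48 were shared by both stages. Small structured RNAs led at 6 hpf. The 7SK RNA rn7sk, which holds the elongation factor P-TEFb in an inactive complex, was at 244 FPKM at 0 hpf and 23621 at 6 hpf, 96.9-fold higher (89.4 to 105). The RNA of RNase MRP, rmrp, was the most abundant gene of the egg and also rose, from 6206 to 20009 FPKM. Among genes for proteins, eef1a1l1, an elongation factor of translation, led at 6 hpf at 6096 FPKM. The chromatin protein gene hmga1a was at 328 FPKM at 0 hpf and 4223 at 6 hpf, 12.9-fold higher (12.3 to 13.4), and the histone variant gene h3f3a at 483 FPKM at 0 hpf and 3715 at 6 hpf. In the egg the most abundant gene for a protein was cldnd, which encodes a claudin of tight junctions, at 2904 FPKM against 43.7 at 6 hpf. It was followed by ACP5, named for the tartrate-resistant acid phosphatase, at 2027 and 205 FPKM at 0 and 6 hpf. Next came the mitotic cyclin gene ccnb1, at 1997 and 679.8 FPKM.

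**Figure D3:**
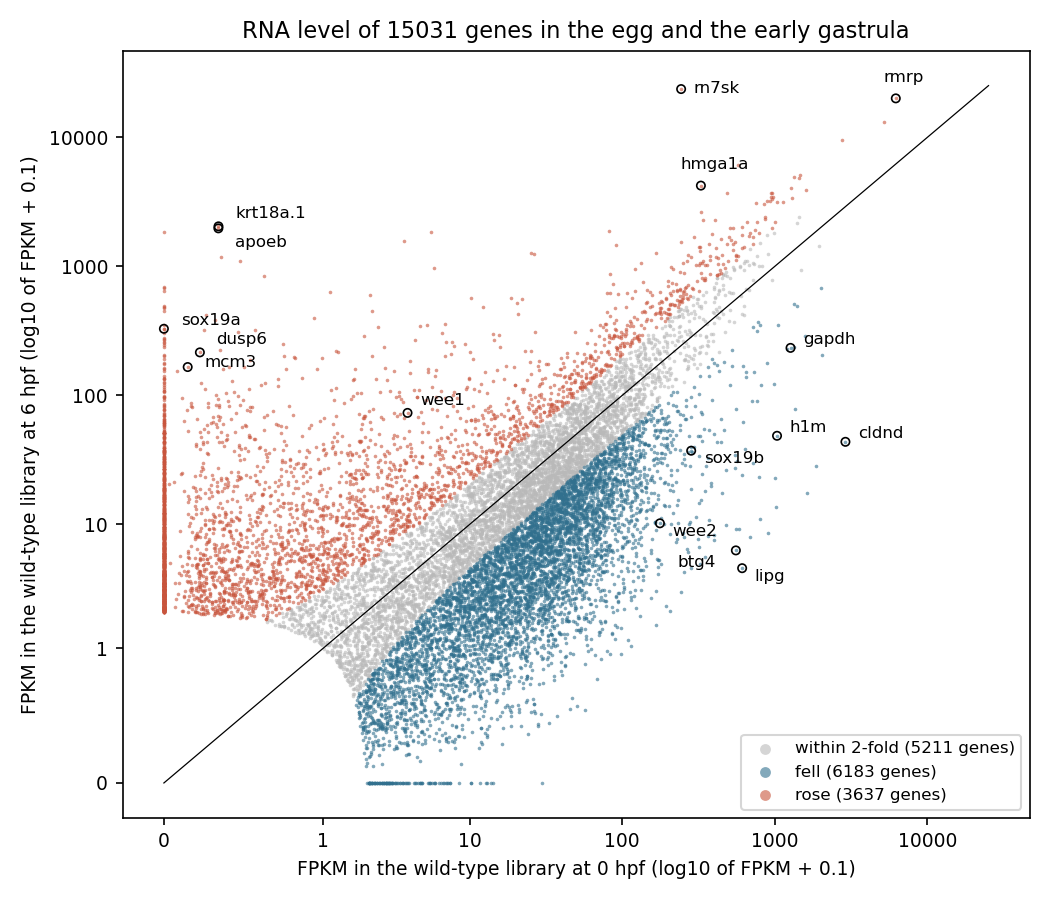
FPKM at 0 hpf (horizontal) against FPKM at 6 hpf (vertical) for the 15031 counted genes, both on log10(FPKM + 0.1) axes, 1 point per gene and 1 library per stage; the line marks equal values. Named genes include rn7sk at the top, krt18a.1 and apoeb near 0 at 0 hpf and 1971 to 2042 FPKM at 6 hpf, and lipg and btg4 among the deepest falls.

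The 20 largest falls include genes of oocyte arrest, egg activation and germ plasm, among them btg4, mos and buc. They also include genes of other kinds. The endothelial lipase gene lipg went from 612 to 4.50 FPKM, 136-fold lower (96.6 to 197). The rasef2 gene, named for a Ras and EF-hand domain protein, went from 693 to 7.99 FPKM. The ripor3 gene went from 206 to 2.04 FPKM, 101-fold lower (69.0 to 153). The autophagy gene map1lc3c went from 554 to 9.18 FPKM and the supervillin gene SVIL from 285 to 4.54 FPKM. Every one of these was still detected at 6 hpf, at between 2.04 and 9.18 FPKM. The largest rises include marcksl1b, a regulator of actin at the membrane, which went from 3.62 to 1583 FPKM, 437-fold higher (313 to 632). The scaffold gene akap12b, which anchors protein kinase A, went from 0.349 to 845 FPKM. The otolith matrix gene stm was at 0 FPKM at 0 hpf and 646 at 6 hpf, at least 2230.3-fold higher.

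The coat proteins of the egg come from the zona pellucida genes, which in fish are transcribed in the oocyte or the liver. Of 20 counted members, 19 fell and 0 rose, beside 41.1% lower and 24.2% higher among all genes (median change -2.55). Together they went from 0.276% to 0.0265% of the summed FPKM. The leading member zp3f.1 went from 454 to 17.4 FPKM, 26.1-fold lower (21.7 to 31.6), and zp3b from 354 to 28.6 FPKM. The member within 2-fold was zp2.3, at 14.97 FPKM at 0 hpf and 7.60 at 6 hpf. Yolk proteases behaved as a mixed group, in which 4 of 11 counted members rose and 2 fell (median change 0.58). Cathepsins are lysosomal proteases that also cleave yolk. The cathepsin gene CTSB was abundant at both stages, at 1485 and 933 FPKM. In contrast ctsz fell from 93.4 to 2.46 FPKM, 38.0-fold lower (22.9 to 68.2). Rising from an already high level, ctsla was at 862 FPKM at 0 hpf and 2429 at 6 hpf. From 0 reads, ctsll reached 451 FPKM, at least 1622-fold higher, and ctsh went from 0.138 to 52.0 FPKM.

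Several genes of the egg have a close relative with a general task, and in these pairs the exchange could be followed copy by copy. In the Sox group, sox19b went from 284 to 37.3 FPKM while sox19a went from 0 to 329 FPKM. The Wee kinases hold Cdk1 inactive. The oocyte form wee2 fell from 177 to 10.1 FPKM, 17.4-fold lower (14.3 to 21.5), and wee1 rose from 3.84 to 73.3 FPKM, 19.1-fold higher (15.6 to 23.6). Of the poly(A) binding proteins, the egg form pabpc1l fell from 132 to 13.2 FPKM and pabpc1a rose from 425 to 1166 FPKM. The nuclear form pabpn1l fell from 319 to 14.7 FPKM while pabpn1 stayed within 2-fold at 91.8 and 168 FPKM. Nucleoplasmin stores histones in the egg: npm2a fell from 45.2 to 6.28 FPKM, and nucleophosmin npm1a, a nucleolar relative, rose from 200.02 to 777 FPKM. Of the proteins that bind histone messages, slbp2 fell from 402 to 7.48 FPKM while slbp was at 317 and 495 FPKM. In further pairs neither copy rose. The A-type cyclin ccna1 fell from 1351 to 78.0 FPKM beside ccna2 at 508 and 461 FPKM. The importin kpna7 fell from 324 to 4.87 FPKM, 66.5-fold lower (50.7 to 88.9), and kpna2 fell less, from 523 to 223 FPKM. In the TATA-binding pair both fell, tbpl2 from 18.3 to 0.507 FPKM and tbp from 95.2 to 14.0 FPKM. Both copies of Zar1 fell as well, zar1 from 102 to 9.80 FPKM and zar1l from 347 to 5.50 FPKM.

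**Figure D4:**
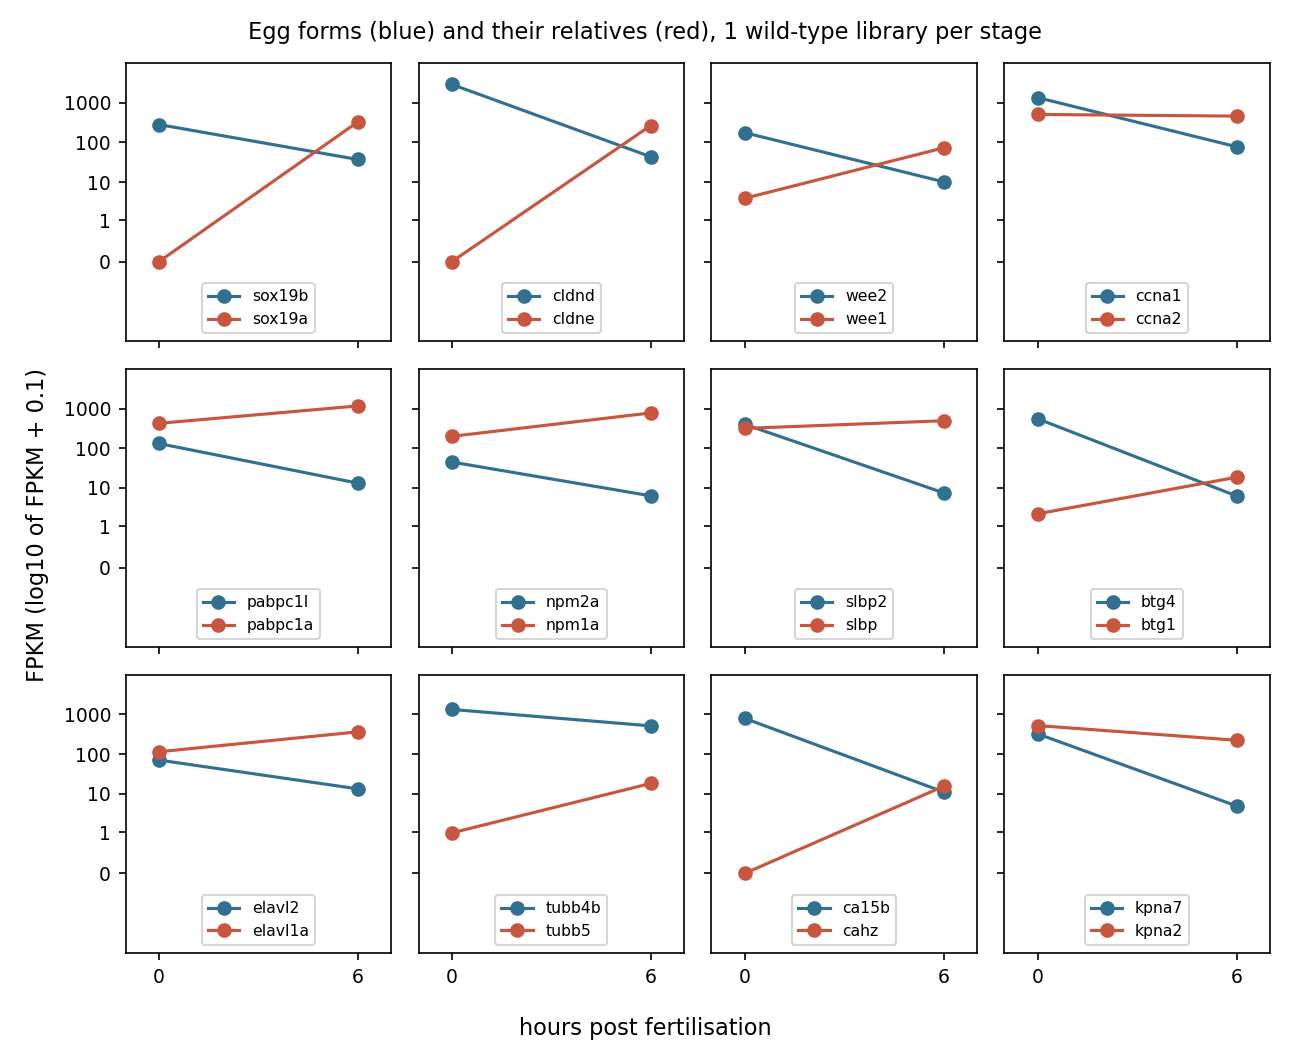
FPKM at 0 and 6 hpf for 12 pairs of an egg form (blue) and a relative (red), on a log10(FPKM + 0.1) axis, 1 wild-type library per stage. The pairs were chosen from a longer list, each with an egg form that fell; the relative is higher at 6 hpf in 10 panels and lower for ccna2 and kpna2.

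Over all pairs of the list, 29 egg forms were found in the table, of which 20 fell, 2 rose and 7 stayed within 2-fold. Of 31 relatives found, 19 rose, 6 fell and 6 stayed within 2-fold. Among all counted genes 24.2% rose and 41.1% fell. The pairs were chosen with earlier results of these data known, so the counts do not measure how often copies are exchanged. Some pairs, such as nanog and vox or tdgf1 and lft1, are not close relatives, and zar1l, itself an egg gene, counts as a relative. The egg forms that rose were hsp90ab1, from 863 to 2342 FPKM, and dnmt3ba, from 17.9 to 77.7 FPKM.

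Replication offered a further case. The Mcm proteins form the ring that licenses and unwinds replication origins. The gene mcm3 went from 0.0431 to 166 FPKM, 3851-fold higher (691 to 152167), while mcm3l, chosen after its values were seen, went from 120.1 to 4.93 FPKM, 24.4-fold lower (19.5 to 30.7). The symbol mcm6 is shared by 2 identifiers. The first went from 0.131 to 83.8 FPKM and the other from 200.1 to 117 FPKM. Over the whole table, 280 pairs of counted genes had symbols that differ only in a final a or b, a spelling used for copies from the fish genome duplication and for some older relatives. It is also used for different subunits of 1 complex, such as polr2a and polr2b, so not every pair is a pair of copies. In 30 pairs (10.7%) 1 member rose and the other fell. Both rose in 30 pairs, both fell in 55 and both stayed within 2-fold in 53. Among all counted genes 24.2% rose and 41.1% fell, and whether these pairs part more or less often than unrelated genes was not tested. The more abundant member was a different one at the 2 stages in 88 pairs, and by at least 2-fold at each stage in 29 of these. Pairs with a wide gap, again chosen after their values were seen, include morc3b at 0 and 70.8 FPKM beside morc3a at 11.2 and 5.47 FPKM. Likewise tbl1xr1a was at 0.256 and 37.0 FPKM and tbl1xr1b at 57.5 and 19.6 FPKM, and atp1b3a at 0.0926 and 35.5 FPKM beside atp1b3b at 67.2 and 29.1 FPKM. In hmgn1, chosen in the same way, both copies rose, hmgn1b from 5.76 to 979 FPKM and hmgn1a from 510.1 to 1982 FPKM.

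Families of transcription factors contained silent members, egg members and new ones. Hox genes pattern the body axis after gastrulation has begun, and 1 of 47 matched Hox identifiers was counted. That gene, hoxb1b, was at 0.0823 FPKM at 0 hpf and 3.49 at 6 hpf. Of 23 matched T-box identifiers 7 were counted and 6 rose (median change 3.39). The exception was 1 of the 2 identifiers named EOMES, the maternal T-box regulator, which fell from 44.0 to 5.67 FPKM. A separate identifier named TBXT was at 0 FPKM at 0 hpf and 9.52 at 6 hpf, beside tbxta at 325 FPKM. Of 8 matched GATA identifiers, which act in endoderm, blood and heart, 5 were counted and 4 rose (median change 3.08). The highest was gata6 at 0.205 FPKM at 0 hpf and 98.4 at 6 hpf, 480.0-fold higher (164 to 2331), followed by gata5 at 0 FPKM at 0 hpf and 25.0 at 6 hpf.

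Forkhead genes showed egg and gastrula members side by side. Of 26 counted members, out of 62 matched, 11 were higher and 6 lower (median change 0.42). The endoderm gene foxa3 was at 0 FPKM at 0 hpf and 53.4 at 6 hpf, at least 372-fold higher, and the ectodermal gene foxi1 at 0.0807 FPKM at 0 hpf and 27.1 at 6 hpf. The cofactor of Nodal signalling foxh1 was maternal and rose, from 22.8 to 49.6 FPKM. Falling members were foxp1a, from 29.4 to 7.55 FPKM, foxo3a, from 27.5 to 11.6 FPKM, and the cell cycle regulator foxm1, from 13.4 to 5.30 FPKM. In the Sox family 6 of 12 counted members, out of 27 matched, rose and 5 fell (median change 0.99). The SoxB1 genes sox3 and sox2, which mark the prospective neural plate, were each at or below 0.0749 FPKM in the egg. At 6 hpf sox3 was at 125 FPKM and sox2 at 65.7 FPKM. The endoderm gene sox32 was at 0 FPKM at 0 hpf and 159.7 at 6 hpf. Egg members besides sox19b were sox13, from 18.5 to 5.01 FPKM, and sox21a, from 6.44 to 0.426 FPKM.

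Homeobox lists differed. In the Pou list 2 of 5 counted members, out of 17 matched, rose and 2 fell (median change -0.87). Under TPM scaling 2 rose and 3 fell. The median was -0.075 at a mean FPKM of at least 5 and -0.0029 without a filter. The share of the list in the summed FPKM went up, from 0.0296% to 0.0872%. In the LIM homeobox list 4 of 7 counted members, out of 20 matched, rose and 3 fell (median change 1.52). The sign of this median depends on the filter. It was -1.08 at a mean FPKM of at least 5 and -0.048 without a filter. Of 8 counted genes of the Nkx, Dlx, Msx and ventral group, out of 35 matched, 6 rose (median change 3.75). The ventral repressors vox, ved and vent limit the dorsal organizer. At 6 hpf vox was at 224 FPKM, ved at 109 and vent at 31.5, against at most 0.133 FPKM in the egg. The posterior gene eve1 was at 0 FPKM at 0 hpf and 121 at 6 hpf. A homeobox message of the egg that was nearly gone at 6 hpf was DLX6, at 24.0 FPKM at 0 hpf and 0.140 at 6 hpf, 171-fold lower (30.3 to 6772). Of the Pax, Otx and sine oculis homeobox group, 7 of 15 counted members, out of 38 matched, rose (median change 0.73). The anterior gene otx2a was at 0 FPKM at 0 hpf and 62.3 at 6 hpf, while otx1 was present at both stages, at 21.8 and 12.2 FPKM. Of 26 matched Hes and Her identifiers, repressors that often act downstream of Notch, 10 were counted and 9 rose (median change 3.81). The highest at 6 hpf were 1 of 2 hes6 identifiers, at 2.77 FPKM at 0 hpf and 132 at 6 hpf, and her7, at 0.798 FPKM at 0 hpf and 36.6 at 6 hpf.

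Krüppel-like and Sp genes rose more often than they fell, 10 and 5 of 20 counted, out of 32 matched (median change 1.11). The size of this median depends on the filter and the egg library. It was 0.53 at a mean FPKM of at least 5, 0.059 without a filter and 0.076 with the egg library of Mybx1. The epithelial gene klf17 was at 0.0813 FPKM at 0 hpf and 41.7 at 6 hpf, klf2b at 0.959 FPKM at 0 hpf and 62.9 at 6 hpf and klf4 at 0.0730 FPKM at 0 hpf and 16.1 at 6 hpf. Against this, klf6b fell from 11.9 to 0.282 FPKM. Among bHLH and Myc genes 11 of 20 counted members rose (median change 1.67). The Myc gene mych went from 7.60 to 258 FPKM, 34.0-fold higher (28.4 to 41.0). Its dimer partner max stayed within 2-fold, at 168 and 192 FPKM, and the antagonist mxd3 fell from 79.4 to 10.9 FPKM. The E proteins, partners of tissue-specific bHLH factors, rose in tcf3a from 14.2 to 129 FPKM and in tcf3b from 13.0 to 104 FPKM. Their inhibitor id1 went from 0.263 to 113 FPKM, 431-fold higher (119 to 3563). Among Ets genes 5 of 13 counted members rose (median change 0.58). The FGF-responsive gene etv4 went from 1.02 to 66.8 FPKM, and etv5b from 22.0 to 112 FPKM while etv5a fell from 69.3 to 19.7 FPKM.

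Nuclear receptors are ligand-controlled factors, and here 18 of 38 counted members fell and 13 rose (median change -0.79), with 15 and 14 under median-ratio scaling. As deposited 47.4% were lower and 34.2% higher, beside 41.1% and 24.2% of all genes. The thyroid hormone receptor THRA, as 1 of 2 identifiers, fell from 37.4 to 3.24 FPKM. The glucocorticoid receptor nr3c1, which is loaded into the egg, fell from 24.4 to 6.37 FPKM, 3.83-fold lower (3.13 to 4.71). A retinoic acid receptor, 1 of 2 identifiers named RARG, fell from 33.5 to 1.84 FPKM. Rising receptors were 1 of 2 NR6A1 identifiers, from 32.5 to 177 FPKM, and NR0B2, from 0 to 125 FPKM. Receptors RXRB and rarab were abundant at both stages. RXRB rose from 62.7 to 168 FPKM, and rarab stayed within 2-fold at 89.5 and 74.3 FPKM. For the stress and growth factors of the AP-1, ATF and Maf list, 11 of 25 fell and 5 rose, an order that turned to 8 and 9 under median-ratio scaling (median change -0.05). As deposited 44% were lower and 20% higher, near the 41.1% and 24.2% of all genes. The liver factor creb3l3l fell from 67.5 to 13.4 FPKM and the stress factor atf5a from 21.0 to 0.274 FPKM. Genes with znf or zbtb symbols were among the largest lists, with 226 counted (median change 0.20). Of these 77 rose and 55 fell as deposited, and 69 and 71 under TPM scaling, so that the direction of the list depends on scaling. Examples are znf638, which rose from 9.51 to 38.1 FPKM, and znf326, which fell from 89.6 to 8.36 FPKM.

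In signalling lists, new ligands and receptors appeared beside maternal ones that fell or stayed level. Bone morphogenetic proteins (BMPs) specify ventral tissue. Of the BMP list 10 of 19 counted members rose and 5 fell (median change 2.204). The ligand bmp7a went from 0.485 to 51.2 FPKM and the pseudoreceptor BAMBI, as 1 of 2 identifiers, from 5.30 to 152 FPKM. The maternal receptor gene bmpr1ba fell from 57.6 to 1.92 FPKM, 30.0-fold lower (20.2 to 46.6), and the receptor acvr1l, which stayed within 2-fold, was at 147 and 293 FPKM. The ligand gdf6a fell from 7.58 to 0.181 FPKM.

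Wnt signalling acts through beta-catenin, or without it in cell movement. Of 26 matched Wnt ligand identifiers 4 were counted (median change 3.47). The genes wnt11f2 and wnt5b, which drive convergence and extension, went from 0.248 to 76.7 FPKM and from 0.140 to 43.7 FPKM. Among Frizzled receptors and coreceptors 10 of 18 rose and 5 fell (median change 1.93). Of the 2 identifiers named FZD7, 1 went from 0.621 to 195 FPKM, 314-fold higher (184 to 591), and the other from 29.4 to 97.1 FPKM. In the egg fzd5 was at 21.9 FPKM and fzd6 at 13.6, and both fell, to 3.58 and 2.86 FPKM. The receptor-clearing ligase znrf3 fell from 31.3 to 3.14 FPKM. In the list of antagonists, transducers and targets, 10 of 16 rose and 0 fell as deposited, with 8 and 3 under TPM scaling (median change 1.44). Beta-catenin comes from 2 genes, of which ctnnb1 rose from 121 to 645 FPKM, 5.31-fold higher (5.04 to 5.59), and ctnnb2 stayed at 143 and 191 FPKM. The secreted inhibitor SFRP1, as 1 of 2 identifiers, went from 7.54 to 209 FPKM. The target and inhibitor axin2 went from 23.3 to 50.9 FPKM, while axin1 stayed at 58.2 and 31.5 FPKM.

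For planar cell polarity, the system that orients cells in a sheet, 8 of 18 counted members rose and 4 fell (median change 0.89). The core gene vangl2 rose from 54.7 to 117 FPKM while vangl1 fell from 4.03 to 0.575 FPKM. The glypican gpc4 rose from 9.42 to 112 FPKM, 11.9-fold higher (10.1 to 14.2). A similar change of member was seen for Prickle, where 1 of 2 PRICKLE1 identifiers went from 0 to 51.7 FPKM and 1 of 2 PRICKLE2 identifiers from 84.5 to 11.2 FPKM. In the Notch list 7 of 14 counted members, out of 19 matched, rose and 4 fell (median change 0.76). The median was -0.34 at a mean FPKM of at least 5 and 0.28 without a filter. The ligand dlc went from 0.123 to 47.4 FPKM and the glycosyltransferase lfng, which modifies Notch, from 0.911 to 162 FPKM, 178-fold higher (101 to 344). Its relative rfng fell from 42.1 to 12.8 FPKM, and the ligand jag2b from 29.5 to 3.07 FPKM. Of 9 counted genes of the Hedgehog pathway 7 rose (median change 1.92). Most of these receive the signal, among them smo, from 2.30 to 33.8 FPKM, and boc, from 13.9 to 55.1 FPKM. The inhibitor sufu fell from 105 to 35.2 FPKM.

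Guidance and repulsion molecules appeared in number. Of 19 counted Eph receptors and ephrins, out of 29 matched, 14 rose and 4 fell (median change 3.04). The receptor epha2a went from 1.24 to 114 FPKM, 91.9-fold higher (59.3 to 151). The 2 EFNB2 identifiers went from 0 to 46.0 FPKM and from 1.64 to 99.7 FPKM. Eph receptors of the egg fell, ephb1 from 6.54 to 0.869 FPKM and epha4b from 2.79 to 0.391 FPKM. Semaphorins and plexins were divided, with 11 of 24 lower and 7 higher (median change -0.95), with 8 and 7 under median-ratio scaling. As deposited 45.8% were lower and 29.2% higher, near the 41.1% and 24.2% of all genes. The ligand sema6d went from 0.266 to 76.3 FPKM, 286-fold higher (122 to 883), and sema3e from 32.7 to 6.79 FPKM. Of 78 matched chemokine and receptor identifiers 8 were counted (median change 3.06). Both CXCR4 identifiers rose, from 1.66 to 134 FPKM and from 3.24 to 97.3 FPKM, and the ligand cxcl12b went from 0.0464 to 9.69 FPKM.

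Lists for adhesion and matrix differed from each other. Claudins and other tight junction genes went from 0.862% to 0.171% of the summed FPKM, with 13 of 32 counted members higher and 10 lower (median change 0.10). Most of the egg share came from cldnd and cldng. The gene cldnd went from 0.467% to 0.00584% of the summed FPKM and cldng from 0.262% to 0.00232%. Keratin filaments and the desmosomes that anchor them make the outer layer resistant to stress. Of 24 counted members, out of 35 matched, 19 rose, and the list went from 0.0152% to 0.926% of the summed FPKM (median change 5.64). The keratin krt8 was already present in the egg, at 5.54 FPKM at 0 hpf and 1860.4 at 6 hpf, 336-fold higher (257 to 449). The keratin krt18a.1 rested on 1 read in the egg, and was at 0.128 FPKM at 0 hpf and 2042 at 6 hpf. All 7 counted laminin and nidogen genes, out of 18 matched, rose as deposited, and 6 did so under TPM scaling (median change 4.64). These form the basement membrane. The chain lamc1 was maternal, at 32.3 FPKM at 0 hpf and 69.4 at 6 hpf, whereas lama1 went from 0.443 to 59.6 FPKM, 135-fold higher (95.2 to 197), and 1 of 2 LAMB1 identifiers from 0.0308 to 96.2 FPKM. For collagens, with 13 counted of 56 matched, 8 stayed within 2-fold and no counted member reached 10 FPKM (median change 0.24).

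Protocadherins guide cell sorting. Of 57 matched identifiers 10 were counted, of which 7 rose (median change 2.49). Of 2 identifiers named PCDH1, 1 went from 0.0849 to 112 FPKM, and of 2 named pcdh8, 1 went from 0.417 to 75.4 FPKM. Integrins, the receptors for the matrix, were divided, with 6 of 13 higher and 4 lower (median change 0.75). The fibronectin receptor chain itga5 rose from 43.5 to 113 FPKM, 2.59-fold higher (2.42 to 2.77), while itgb5 fell from 100.1 to 39.4 FPKM and itgb6 from 51.8 to 1.42 FPKM. Gap junction channels let ions and small molecules pass between cells. Of 7 counted connexins and pannexins, out of 36 matched, 5 rose (median change 1.53). The connexin gjc4b went from 83.0 to 627 FPKM, 7.56-fold higher (7.15 to 7.98), and 1 of the 2 GJA5 identifiers from 6.89 to 258 FPKM. Of the tetraspanins, membrane organisers that act in fertilisation among other tasks, 10 of 23 fell and 5 rose (median change -0.81), a split close to that of all genes, at 43.5% and 21.7% beside 41.1% and 24.2%. The gene cd9b remained at 258 and 187 FPKM, and tspan36 fell from 146 to 21.0 FPKM.

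Pumps and carriers changed in composition. Solute carriers form the largest transporter group, with 229 counted, of which 58 rose and 102 fell (median change -0.77). These proportions lie near those of all genes. Lactate is carried by SLC16 proteins. Of 2 SLC16A3 identifiers 1 fell from 623 to 62.5 FPKM, 9.96-fold lower (9.22 to 10.8), and 1 of the 2 SLC16A1 identifiers rose from 15.8 to 239 FPKM, 15.1-fold higher (13.3 to 17.2). The amino acid transporter heavy chain SLC3A2 rose from 1.95 to 289 FPKM, 148-fold higher (103 to 219). The mitochondrial carrier slc25a5, which exchanges ADP and ATP, rose from 558 to 1202 FPKM. Of ABC transporters 19 of 33 fell and 4 rose (median change -1.25), or 57.6% and 12.1% beside 41.1% and 24.2% of all genes. Under median-ratio scaling 11 were lower and 9 higher. The transporter abcc1 fell from 50.7 to 5.16 FPKM, while the cholesterol exporter abca1b went from 0.0434 to 53.1 FPKM. The sodium pump gained a beta chain, as 1 of 2 ATP1B1 identifiers went from 0.294 to 321 FPKM, 1093-fold higher (373 to 5301). The vacuolar proton pump moved down as a group, with 17 of 23 members lower and a share of the summed FPKM that went from 0.144% to 0.0324% (median change -1.97). Its subunit atp6v0d1 fell from 94.5 to 8.90 FPKM, 10.6-fold lower (8.36 to 13.7), and atp6v1g1 from 76.2 to 21.4 FPKM. The subunit atp6v0e1 stayed at 19.9 and 17.2 FPKM.

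In the cytoskeleton, the main actin genes stayed within 2-fold as deposited, while some of their partners changed. Of the actin, cofilin and profilin list, actb1 was at 1956 and 1445 FPKM, actb2 at 457 and 878 FPKM and cfl1 at 646 and 664 FPKM, each within 2-fold. Profilin supplies actin monomers, and pfn1 rose from 93.6 to 610.5 FPKM, 6.52-fold higher (5.95 to 7.15), while pfn2b fell from 422 to 171 FPKM. Thymosins bind actin monomers: tmsb5 fell from 611 to 24.2 FPKM, 25.2-fold lower (19.9 to 32.5), whereas tmsb4x rose from 12.5 to 152 FPKM and tmsb1 from 0 to 138 FPKM. Tropomyosins line actin filaments. Here tpm1 fell from 84.7 to 6.15 FPKM, TPM4 rose from 2.54 to 40.6 FPKM and tpm3 stayed at 236 and 339 FPKM. Tubulins also moved both ways, with tubb4b lower, from 1331 to 514 FPKM, tuba4l lower, from 160.2 to 13.6 FPKM, and 1 of 2 tubb2b identifiers higher, from 142 to 447 FPKM. Kinesins, motors on microtubules, included 14 of 30 that fell and 2 that rose (median change -0.94), with 46.7% lower beside 41.1% of all genes. The mitotic motors kif11 and kif23 stayed within 2-fold, at 358 and 244 FPKM and 257 and 192 FPKM, while kif2c fell from 81.7 to 22.2 FPKM. The pair kif20ba and kif20bb went opposite ways, from 105 to 25.4 FPKM and from 5.26 to 52.3 FPKM. Of myosins 13 of 28 fell and 6 rose, with 6 and 6 under median-ratio scaling (median change -0.85). As deposited 46.4% were lower and 21.4% higher, near the 41.1% and 24.2% of all genes.

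Rab proteins direct vesicle traffic, and 34 of 70 counted members fell and 11 rose (median change -0.94). The share lower was 48.6%, beside 41.1% of all genes, and under median-ratio scaling 25 were lower and 15 higher. RAB35 fell from 167 to 32.5 FPKM, 5.13-fold lower (4.53 to 5.83), and RAB11B from 82.1 to 25.1 FPKM, while rab11a stayed at 42.5 and 56.2 FPKM. The epithelial pair rab25a and rab25b rose, from 0 to 26.1 FPKM and from 3.36 to 26.2 FPKM. Annexins bind membranes in the presence of calcium. Of 12 counted 6 rose (median change 1.15). The highest at 6 hpf was ANXA1, which went from 0.867 to 401 FPKM, 462-fold higher (212 to 1260.1).

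Cleavage cycles run without gap phases on stored cyclins, and the longer cycles after the midblastula transition add control by new transcripts. Of 25 counted cyclins 9 fell and 4 rose as deposited, with 6 each way under median-ratio scaling (median change -0.55). As deposited 36% were lower and 16% higher, beside 41.1% and 24.2% of all genes. The mitotic cyclins ccnb1 and ccnb2 fell, from 1997 to 679.8 FPKM and from 735 to 153 FPKM. The new cyclins were ccnd1, from 2.13 to 598 FPKM, and ccne2, from 1.68 to 159.8 FPKM, 94.8-fold higher (62.4 to 152). The maternal ccne1 stayed at 269 and 184 FPKM. The inhibitors cdkn1ca and cdkn1a, which slow the cycle, rose from 4.81 to 30.2 FPKM and from 1.84 to 8.25 FPKM. The phosphatase gene cdkn3 fell from 61.7 to 1.66 FPKM, 37.1-fold lower (19.3 to 81.7). In the list for kinetochore, checkpoint and spindle 26 of 41 members stayed within 2-fold and 13 fell, although with median-ratio scaling equal numbers, 3 each way, passed 2-fold (median change -0.60). The Aurora kinase genes aurka and aurkb fell from 325 to 141 FPKM and from 771 to 318 FPKM. Survivin birc5b, a partner of Aurora B, fell from 319.5 to 6.65 FPKM, 48.0-fold lower (32.1 to 75.2). The spindle checkpoint gene mad2l1 stayed within 2-fold, at 325 and 175 FPKM.

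The anaphase promoting complex is the ligase that ends mitosis. Of 18 counted members 9 fell and 0 rose, with 6 and 2 under median-ratio scaling (median change -0.99). Its meiotic inhibitor fbxo43, known as Emi2, fell from 350.0 to 18.1 FPKM, 19.4-fold lower (15.7 to 24.1), while the mitotic inhibitor fbxo5 stayed at 322 and 238 FPKM. Of the activators, cdc20 was at 634 and 424 FPKM and FZR1 at 80.1 and 88.5 FPKM. The replication list fell in 28 of 52 members and rose in 6 (median change -1.05). These are 53.8% and 11.5%, beside 41.1% and 24.2% of all genes, and under median-ratio scaling 18 were lower and 7 higher. Geminin gmnn, which blocks licensing, fell from 813 to 122 FPKM, 6.69-fold lower (6.17 to 7.26), and its target cdt1 stayed at 244 and 289.7 FPKM. The initiator orc1 fell from 157 to 23.9 FPKM. In contrast pcna, the sliding clamp, rose from 344 to 791 FPKM and mcm7 from 491 to 1111 FPKM, both within 2-fold under TPM scaling. Cohesin holds sister chromatids together, and its subunit rad21a rose from 254 to 650.1 FPKM, 2.56-fold higher (2.45 to 2.67). The 2 STAG2 identifiers went opposite ways, from 117 to 268 FPKM and from 44.98 to 4.06 FPKM. Securin pttg1, which blocks cohesin cleavage, fell from 196 to 60.8 FPKM.

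Chromatin proteins were exchanged member by member. The list of linker and variant histones, their chaperones and high mobility group (HMG) proteins went from 1.40% to 2.46% of the summed FPKM. In it, 13 of 24 counted members rose (median change 1.33). Of its share, the HMG gene hmga1a alone held 0.0528% at 0 hpf and 0.564% at 6 hpf. The maternal linker histone h1m fell from 1035 to 48.7 FPKM, and the histone chaperone nasp from 1572 to 289 FPKM, 5.45-fold lower (5.18 to 5.73). The variant h2ax rose from 976 to 3466 FPKM and the DNA-bending protein HMGB2 from 886 to 3225 FPKM. For DNA methylation 5 of 11 counted members fell and 3 rose (median change -0.73), near the 41.1% and 24.2% of all genes at 45.5% and 27.3%. The maintenance enzyme dnmt1 fell from 418 to 43.7 FPKM, 9.56-fold lower (9.04 to 10.1), while its cofactor uhrf1 stayed at 135 and 143 FPKM. The de novo enzymes dnmt3bb.2 and dnmt3ba rose, from 43.8 to 197 FPKM and from 17.9 to 77.7 FPKM. Polycomb and Trithorax regulators, which keep genes off or on, included 14 of 31 that fell and 1 that rose, with 10 and 9 under median-ratio scaling (median change -0.92). The share lower was 45.2%, beside 41.1% of all genes. The methyltransferase ezh2 stayed at 65.0 and 108 FPKM, and eed fell from 126 to 58.4 FPKM. Among remodellers 15 of 76 rose and 22 fell, turning to 29 and 14 under median-ratio scaling (median change 0.08). As deposited 19.7% were higher and 28.9% lower, beside 24.2% and 41.1% of all genes. The genes hdac1 and chd7 rose from 238 to 660.0 FPKM and from 95.5 to 282 FPKM.

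The lists for the apparatus of gene expression moved differently. RNA polymerase subunits split like all genes, with 8 of 31 higher and 13 lower, or 25.8% and 41.9% beside 24.2% and 41.1%, turning to 12 and 5 under median-ratio scaling (median change -0.31). The polymerase II subunit polr2b rose from 97.6 to 244 FPKM. The polymerase III subunit polr3gla went from 0.205 to 312 FPKM, 1517-fold higher (419 to 12532). Mediator, which links activators to the polymerase, stayed within 2-fold in 21 of 29 members, and med1 was the member that rose, from 1.95 to 14.1 FPKM (median change -0.46). Of 44 general transcription factors 19 fell and 2 rose (median change -0.82), with 43.2% lower beside 41.1% of all genes. The polymerase III factor GTF3A, as 1 of 2 identifiers, fell from 140.4 to 9.63 FPKM, 14.6-fold lower (11.5 to 18.7). It encodes the 5S RNA binding protein known from frog oocytes. The subunit gtf2a1 fell from 302 to 82.7 FPKM while taf13 stayed at 93.7 and 163 FPKM.

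Splicing proteins leaned upwards. In the list of Sm, SR and hnRNP proteins 43 of 89 counted members rose and 9 fell, and the share of the summed FPKM went from 1.66% to 2.82% (median change 0.90). The RNA-binding proteins hnrnpa0l and hnrnpl rose from 927 to 3221 FPKM and from 137 to 757 FPKM. The core gene snrpb stayed within 2-fold at 635 and 1104 FPKM. Its distant relative lsm11, part of the particle that processes histone messages, fell from 143 to 11.2 FPKM, 12.7-fold lower (10.03 to 16.4). RNA helicases fell in 16 of 48 members and rose in 7, turning to 10 and 20 under median-ratio scaling (median change -0.10). As deposited 33.3% were lower and 14.6% higher, beside 41.1% and 24.2% of all genes. The abundant helicase ddx5 rose from 297 to 1677 FPKM, 5.65-fold higher (5.47 to 5.84), and ddx3xa fell from 162 to 49.5 FPKM.

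**Figure D5:**
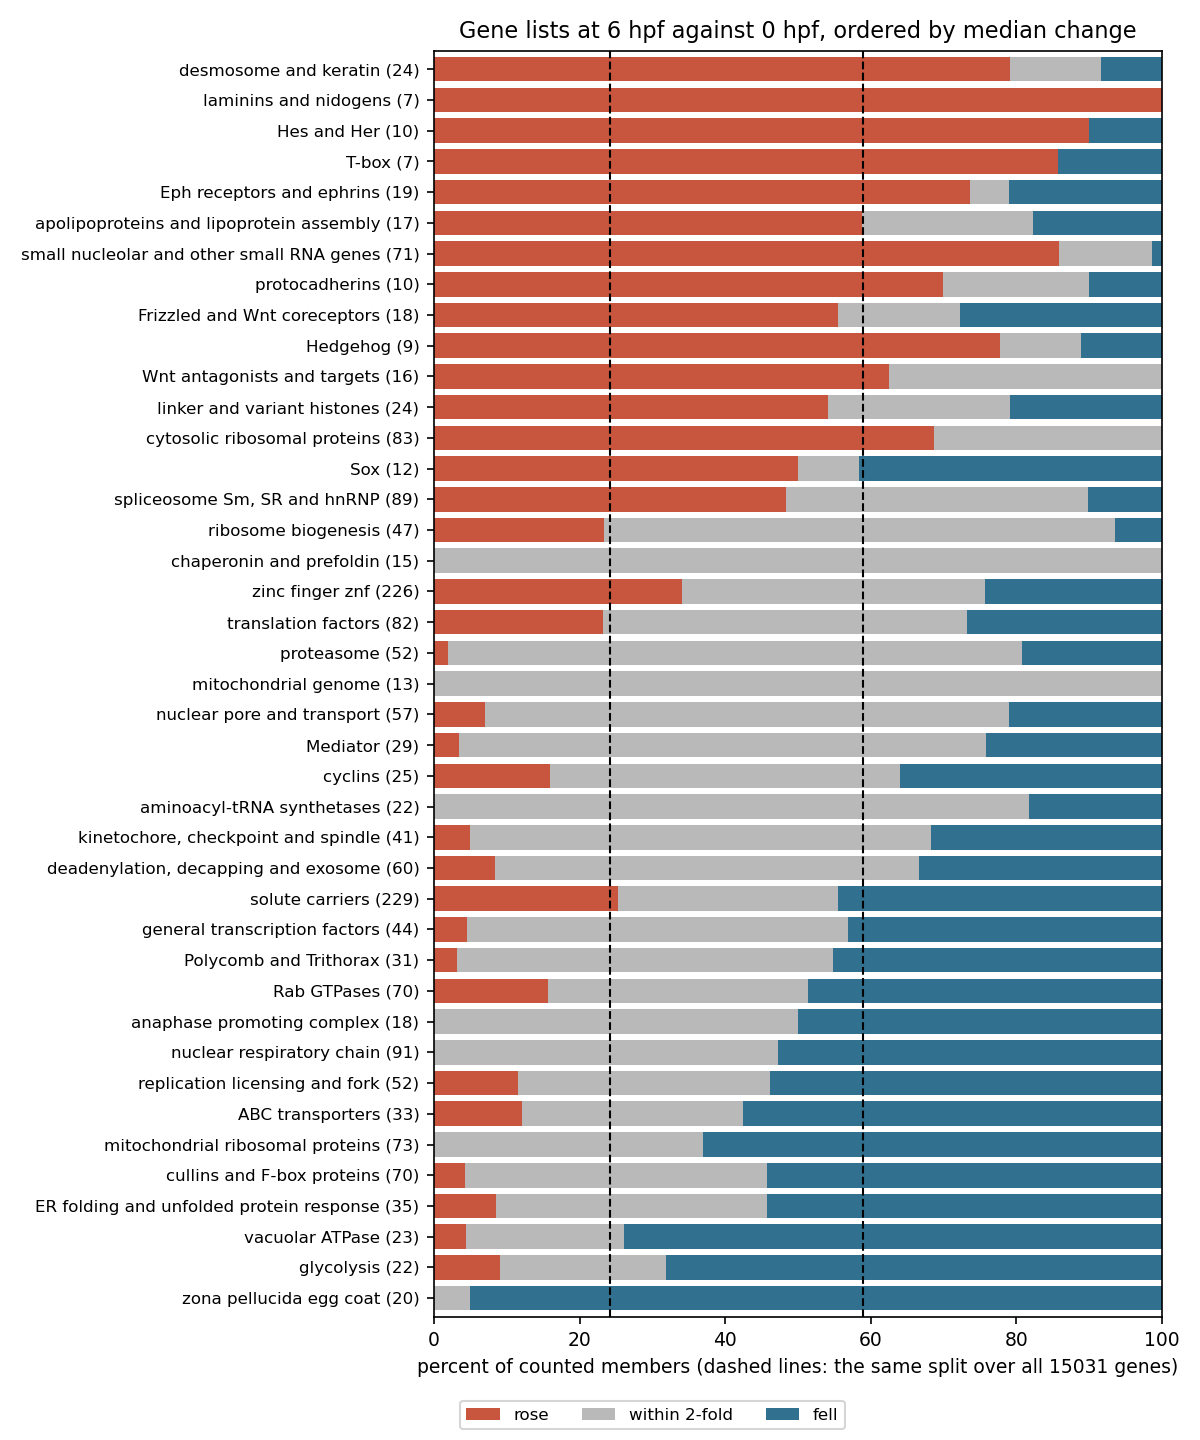
For 41 gene lists, the percent of counted members that rose (red), stayed within 2-fold (grey) or fell (blue) at 6 hpf against 0 hpf as deposited, ordered by median change, with the number of counted members in parentheses and dashed lines at the split over all 15031 genes. Keratin and laminin lists lie at the top and glycolysis and the egg coat at the bottom; under TPM scaling the zinc finger list turns to more members lower than higher, and under median-ratio scaling the lists for translation factors, proteasome, nuclear pore, Mediator, chaperonin and mitochondrial genome turn to more members higher than lower, and cyclins and kinetochore genes are tied.

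Cytosolic and mitochondrial ribosomes parted. Of 83 cytosolic ribosomal protein genes 57 rose and 0 fell, with a median change of 1.22 as deposited, 0.95 under TPM and 1.85 under median-ratio scaling. Of 73 mitochondrial ribosomal protein genes 46 fell and 0 rose, or 28 and 3 under median-ratio scaling, with medians of -1.30, -1.55 and -0.70. In the first list rps7 rose from 229 to 659 FPKM and rpl7a from 263 to 690.4 FPKM. In the second mrpl3 fell from 109 to 10.7 FPKM, 10.2-fold lower (8.23 to 12.8), and mrpl12 from 106 to 10.9 FPKM, while mrps6 stayed at 90.8 and 81.1 FPKM. Nucleolar proteins that build cytosolic ribosomes leaned upwards, with 11 of 47 higher, 3 lower and 33 within 2-fold (median change 0.48). Fibrillarin fbl, which methylates ribosomal RNA, rose from 269 to 722 FPKM, and nucleolin ncl from 686 to 1825 FPKM.

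Translation factors as a list had 19 of 82 members higher and 22 lower, turning to 32 and 10 under median-ratio scaling (median change 0.14). As deposited 23.2% were higher and 26.8% lower, beside 24.2% and 41.1% of all genes. The helicase eif4a1a rose from 739.9 to 1909 FPKM and eef2b from 335 to 813 FPKM. The kinase of the unfolded protein response eif2ak3 fell from 190.1 to 13.7 FPKM, 13.8-fold lower (11.9 to 16.2). Aminoacyl-tRNA synthetases, which charge tRNAs, stayed within 2-fold in 18 of 22 members (median change -0.59). Genes for messenger RNA removal stayed within 2-fold in most members. Of the list for deadenylation, decapping and the exosome, 35 of 60 stayed within 2-fold, 20 fell and 5 rose (median change -0.72). These are 33.3% lower and 8.33% higher, beside 41.1% and 24.2% of all genes, and under median-ratio scaling 17 were lower and 15 higher. The deadenylase parn fell from 466 to 53.6 FPKM, 8.70-fold lower (7.87 to 9.63), and the adaptor btg3 from 336 to 71.3 FPKM. Against these, the scaffold cnot1 rose from 22.2 to 56.0 FPKM, the decapping enzyme dcp2 from 9.71 to 25.8 FPKM and the decapping cofactor pnrc2 from 386 to 1779 FPKM, 4.603-fold higher (4.44 to 4.77). The microRNA machinery fell in 8 of 14 members (median change -1.41). The share lower was 57.1%, beside 41.1% of all genes, and under median-ratio scaling 7 were lower and 3 higher. The processing enzyme drosha fell from 51.9 to 4.41 FPKM, 11.8-fold lower (9.19 to 15.3), and its partner dgcr8 from 92.9 to 17.8 FPKM, while ago2 stayed at 48.5 and 44.7 FPKM.

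Nuclear import and export stayed level in most members, 41 of 57 within 2-fold (median change -0.17). The order of 12 lower and 4 higher turned to 8 and 20 under median-ratio scaling. Among importin alpha genes kpna7 and kpna2 fell, and kpna2 was still the highest of the 4 named at 6 hpf. The relative kpna3 rose from 0.529 to 26.2 FPKM and kpna1 from 2.39 to 19.5 FPKM. The exporter XPO1 rose from 29.6 to 134 FPKM, and cse1l, which returns importin alpha to the cytoplasm, fell from 169.7 to 30.1 FPKM, 5.63-fold lower (5.003 to 6.36).

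Lists for protein turnover and folding differed in how many members fell. Proteasome subunits stayed within 2-fold in 41 of 52 members, and the order of 10 lower and 1 higher turned to 5 and 9 under median-ratio scaling (median change -0.09). The subunits psma3 and psmc4 were at 207 and 164 FPKM and 182 and 152 FPKM. All 15 counted genes of the cytosolic chaperonin and prefoldin, which fold actin and tubulin, stayed within 2-fold as deposited and under TPM, and 4 passed 2-fold upwards under median-ratio scaling (median change 0.22). The subunit cct3 was at 337 and 393 FPKM. Cullin and F-box genes, which choose proteins for destruction, fell in 38 of 70 members and rose in 3 (median change -1.34). The share lower was 54.3%, beside 41.1% of all genes, and under median-ratio scaling 31 were lower and 6 higher. FBXW11 fell from 312 to 48.8 FPKM, 6.40-fold lower (5.87 to 6.98), while skp1 and skp2 stayed at 104 and 117 FPKM and 204 and 197 FPKM. Folding enzymes of the endoplasmic reticulum fell in 19 of 35 members (median change -1.45). That is 54.3%, beside 41.1% of all genes, and under median-ratio scaling 15 were lower and 6 higher. The disulfide isomerase pdia4 fell from 483 to 26.5 FPKM, 18.2-fold lower (14.95 to 22.3), and the chaperone hyou1 from 283 to 39.7 FPKM, whereas p4hb and xbp1 stayed at 633 and 493 FPKM and 261 and 206 FPKM. In the cytosol the chaperones hsp90ab1 and HSP90AA1 rose from 863 to 2342 FPKM and from 1.12 to 639 FPKM. Autophagy and lysosome genes fell in 22 of 46 members (median change -0.99), 47.8% beside 41.1% of all genes. The LC3 genes, which coat autophagosomes, parted: map1lc3c fell from 554 to 9.18 FPKM and map1lc3b rose from 14.3 to 71.5 FPKM. The lysosomal gene psap stayed at 458 and 723 FPKM.

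Lists for energy metabolism held many members that fell, except for the genes of the mitochondrial genome. Of 22 counted glycolytic genes 15 fell and 2 rose (median change -2.07). The share lower was 68.2%, beside 41.1% of all genes, and under median-ratio scaling 14 were lower and 4 higher. The enzyme genes gapdh, eno3 and LDHB fell from 1269 to 234 FPKM, from 760.3 to 91.3 FPKM and from 522 to 171 FPKM. Of 91 nuclear genes for the respiratory chain 48 fell and 0 rose, with 24 and 7 under median-ratio scaling (median change -1.04). The ATP synthase genes atp5f1b and ATP5F1A fell from 647 to 138 FPKM and from 799 to 353 FPKM, and cox7c stayed at 151 and 259.6 FPKM. All 13 counted protein genes of the mitochondrial genome stayed within 2-fold as deposited and under TPM, and 3 passed 2-fold upwards under median-ratio scaling (median change -0.12). Their share of the summed FPKM was 0.607% and 0.642%. MT-CO1 was at 687 and 1362 FPKM, MT-CO2 at 432 and 641 FPKM and MT-ND6 at 447 and 452 FPKM. Of the tricarboxylic acid cycle 11 of 23 counted members fell (median change -0.89), 47.8% beside 41.1% of all genes. Under median-ratio scaling 5 were lower and 1 higher. The malate dehydrogenase mdh2 fell from 137 to 14.9 FPKM, 9.19-fold lower (7.75 to 10.98).

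Lipid genes moved both ways. Enzymes of cholesterol synthesis and uptake fell in 14 of 23 members (median change -1.26). That is 60.9%, beside 41.1% of all genes, and under median-ratio scaling 10 were lower and 4 higher. The synthase hmgcs1 fell from 126 to 13.3 FPKM and the dehydrogenase nsdhl from 87.7 to 2.02 FPKM, 43.4-fold lower (25.7 to 79.8). Apolipoproteins and the genes that load lipoproteins, active in the yolk syncytial layer, rose in 10 of 17 counted members, out of 37 matched (median change 2.76). On 1 egg read apoeb went from 0.127 to 1971 FPKM, and mttp went from 0.117 to 384 FPKM, 3279-fold higher (907 to 27086). Among enzymes of nucleotide synthesis CTPS1, as 1 of 2 identifiers, rose from 51.0 to 215 FPKM, while tyms fell from 93.2 to 22.0 FPKM and umps from 214 to 41.3 FPKM. Of 61 counted redox genes 26 fell (median change -0.81), which is 42.6% beside 41.1% of all genes. Under median-ratio scaling 16 were lower and 12 higher. The superoxide dismutase sod1 fell from 166 to 9.04 FPKM, 18.4-fold lower (13.4 to 25.9), the glutathione transferase gstp1.2 from 275 to 10.05 FPKM and 1 of 2 prdx1 identifiers from 284 to 67.7 FPKM. TXNIP, which inhibits thioredoxin, rose as 1 of 2 identifiers, from 1.25 to 68.9 FPKM.

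Small RNA genes gained library share. The list of small nucleolar and other small RNA genes went from 1.18% to 6.23% of the summed FPKM. Most of this share, at both stages, came from rmrp and rn7sk. The gene rmrp held 0.997% at 0 hpf and 2.67% at 6 hpf, and rn7sk 0.0392% and 3.15%. Of 71 counted members, out of 174 matched, 61 rose (median change 2.57). To the matched list were added symbols such as RNaseP_nuc and rpph1, and identifiers with no symbol and an inferred length below 300 bases. With these, 1352 identifiers held 3.97% and 11.9%. The RNA of RNase P, which trims tRNA precursors, was present as rpph1 at 2767 and 9476 FPKM. A further RNase P entry, 1 of 2 identifiers named RNaseP_nuc, was at 5163 and 13041 FPKM. Of 4 identifiers named SNORA73, a snoRNA of ribosomal RNA processing, the highest at 6 hpf went from 241 to 665 FPKM. SNORD97 stayed within 2-fold at 101 and 153 FPKM. Of 269 matched microRNA precursor genes 32 were counted and each of these was higher at 6 hpf (median change 2.48). An FPKM of 1 or more was reached by 1 of the 269 at 0 hpf and by 53 at 6 hpf. Members could thus be counted almost only through their level at 6 hpf, so the filter fixed this direction. The 269 together held 0.000447% and 0.0334% of the summed FPKM. Precursors are short, so values rest on few reads, and mir25 was at 0 FPKM at 0 hpf and 13.7 at 6 hpf, at least 2.83-fold higher.

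Most genes of tissues that form after 6 hpf were below the level for counting. Of 131 matched identifiers for globins, crystallins, opsins and muscle proteins 9 were counted and 59 were at 0 at both stages (median change -0.24). The counted member with the highest level was 1 of 6 identifiers named TNNI2, a troponin, which went from 0.0359 to 62.9 FPKM on 1 egg read.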

How the data were processed

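RNA of whole wild-type embryos at 0 and 6 hpf was prepared with Trizol, DNase I and RNeasy columns, per the labels' protocols. The same labels name Ribo-zero for removing ribosomal RNA and NEBNext for building the libraries. The authors deposited FPKM values, 1 column for each library. Named without a role in the submitters' processing notes are the build GRCz10, HTSeq 0.6.1, TopHat2 2.0.12 and Bowtie2 2.2.3. Strandedness, the exact FPKM formula and the number of embryos per library are not given in the sources used here, and overlapping or antisense genes cannot be told apart from these values.

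Changes are differences of log2(FPKM + 1), which are smaller than the true log ratio where levels are low. The library totals and the smallest whole read numbers that fit each gene were worked out from the steps between low FPKM values. For 96.6% of the 2777 low genes used, the step gave a whole gene length. The smallest read numbers summed to 93.3% of the total at 0 hpf and 90.5% at 6 hpf, so intervals drawn from them are, if anything, too wide. A ratio of FPKM values has an exact (Clopper-Pearson, conditional binomial) 95% interval of these reads. The steps were tested on simulated data.

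Symbols were found for 26099 of 31870 identifiers, of which 4274 share a symbol with another identifier. Symbols in capitals are spelled in the human form by the name table, and 1 capital symbol can stand for more than 1 zebrafish copy. Genes were grouped into 120 lists by name patterns. A few genes share only a name with their list, such as krtcap2, nr2c2ap, fgfr1op2, psmc3ip and btf3, and dld was dropped from the list for the tricarboxylic acid cycle. In lists of at most 12 matched members each could be named, and in longer lists the 4 that rose, the 4 that fell and the 4 within 2-fold with the highest levels. The 20 largest rises and falls, the 15 highest genes of each library, the marker genes and a set of egg genes with their relatives could be named as well. Members, lists and pairs were chosen with earlier results of these data known.

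Alternatives were other pseudocounts, filters, scalings (TPM and median-ratio), thresholds, an egg library of Mybx1 and identifiers with a symbol of their own. Computing used Python 3.11.15, numpy 2.4.6, pandas 2.3.3, scipy 1.17.1 and matplotlib 3.10.9.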

Additional observations from a re-analysis of the deposited data

Results flagged for a closer look

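Among genes that could be named, 3 changed from 0 to 6 hpf with opposite signs in wild-type and Mybx1 libraries, each past 2-fold. The basic leucine zipper gene maff was at 9.31 and 21.1 FPKM in wild type, a change of 1.0997 on the log2 scale, and at 18.2 and 5.94 FPKM in Mybx1, a change of -1.47. The Wnt target axin2 was at 23.3 and 50.9 FPKM in wild type, a change of 1.0957, and at 15.9 and 7.33 FPKM in Mybx1, a change of -1.02. For MAT2A, 1 of 2 identifiers for the enzyme that makes S-adenosylmethionine, the values were 2.26 and 8.03 FPKM in wild type, a change of 1.47, and 19.8 and 6.88 FPKM in Mybx1, a change of -1.40. Under TPM scaling the wild-type rises of maff and axin2 were 0.85 and 0.84, within 2-fold. Each value is that of 1 library, and the difference between the genotypes was not tested.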

How the results depend on the processing

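The balance of rises and falls moved with the processing, and beyond the alternatives' own construction the cause was not tested. Against 37.0% of calls higher and a median change of -0.57, a pseudocount of 5 gave 2233 genes higher, 33.5% of calls higher and a median of -0.37. A mean FPKM of at least 5 gave 2003 genes higher, 29.4% and -0.79. Without a filter on low values the figures were 39.9% and -0.073, under TPM 32.3% and -0.81, and under median-ratio scaling 51.7% and -0.026. With TPM scaling over genes other than the 1352 small RNA identifiers, chosen after seeing the data, they were 34.4% and -0.70. Identifiers with a symbol of their own gave 32.9% and -0.69. A 4-fold threshold left 2013 genes higher and 3004 lower, 40.1% higher. Calls whose counting interval lay on 1 side of equality were 35.9% higher, and with the Mybx1 egg library 36.0%. Of 89 list medians, 18 changed sign under median-ratio scaling and 5 under TPM. Of the 1082 genes that could be named under the rules above, not all of them named here, 708 were past 2-fold. TPM removed 47 of these and added 37. Median-ratio scaling removed 84 and added 108, and none turned. Lists with more members higher than lower numbered 59 of 120 as deposited, 55 under TPM and 81 under median-ratio scaling. No paired analysis was possible because there is 1 library per group and the labels carry no replicate numbers, and for the same reason no replicate could be left out. Promoter and protein features were not run. With 7 reads behind mir25 at 6 hpf, folds of such short genes were not resolved at this depth.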
